A study of Drosophila melanogaster with 4 samples.

Results

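The serpins and serine protease homologs were examined in larval fat bodies of the fruit fly Drosophila melanogaster, with and without palm fruit juice (PFJ) in the food. Members were the array rows with a single gene symbol made of Spn, SP, SPH, cSP or cSPH followed by a digit, which gave 31 of the 13402 genes analysed. Of these, 27 carried serpin symbols (Spn), 1 was the serine protease homolog SPH93 and 3 were SP2353, SP1029 and SP1173. The last 3 go against the label. SP1029 encodes a metallopeptidase of the aminopeptidase family and SP2353 a large extracellular protein that RefSeq lists under the synonym Hspg2, while no role is given here for SP1173. All 31 members had 1 row each and matched a current RefSeq gene record. A further 2 rows named SP555 together with another gene and were left out, and on both of them the PFJ arrays, at 4.63 and 4.39, lay below the controls, at 4.89 and 4.64.

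Both groups were w1118 larvae, 5 days old, raised from the egg on a semi-purified diet. Controls ate that diet alone, and the other group ate it with PFJ, an extract rich in phenolic compounds, at 4 ml, which the labels equate with 19000 mg per kg of food, or 0.86 mg per kcal, counted as gallic acid equivalents. Each group had 2 arrays, each with RNA from the fat bodies of 10 pooled larvae, so the replicates measure the spread between pools. Larval sex was not analysed here. Values are RMA log2 intensities deposited by the authors, a scale on which a difference of 1 stands for a factor of 2. In whole-tissue RNA, fewer cells of a type and less RNA per cell cannot be told apart.

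Serpins are protein inhibitors that trap a serine protease through a bait loop exposed to it. In insects many are secreted into the hemolymph, where they hold back the protease cascades that activate the Toll receptor ligand Spätzle and the prophenoloxidases that make melanin. The fat body is the main source of hemolymph proteins. Serine protease homologs keep the protease fold but have lost residues needed for catalysis, and some act as cofactors in the same cascades. Some other fly serpins, such as Spn75F, are products of the male accessory gland.

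The tissue label held against its markers, and the arrays differed in RNA from other tissues. All 9 measured fat body markers were read above background as defined below, with the storage protein gene Lsp2 between 12.2 and 12.3 on the 4 arrays. Lsp2 was the 1 marker with a negative difference between PFJ and control. Of the 9, 7 had both PFJ arrays above both controls, against 15.5% of all genes, and 3 were higher at an unadjusted p under 0.05, against 1.74% of all genes. These were the transferrin gene Tsf1 at a log2 difference of 1.78 (0.97 without control replicate 2), Obp99b at 1.26 and FASN1 at 1.23. The mean level of 13 midgut genes was 5.38 and 7.07 for controls (replicate 1, then 2) and 6.27 and 7.19 for PFJ. Salivary gland genes averaged between 7.60 and 8.32. The mean of 17 testis genes was 5.75, 2.71, 5.42 and 4.39 in the same order, so control replicate 2 stood apart from the other pools. The replicates correlated across genes, which are not independent, at 0.910 within controls and 0.961 within PFJ.

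The files hold no detection calls, so each member was set against 114 odorant and gustatory receptor genes (Or and Gr), which work in chemosensory neurons and stand in for genes little used in this tissue. The 95th percentile of these receptor genes lay at 2.90, 3.03, 3.15 and 3.02 in control replicates 1 and 2 and PFJ replicates 1 and 2. A member was counted as read above background where it exceeded this level on all 4 arrays. Of the 31 members, 17 did so, or 54.8%, against 61.7% of all genes. These were 13 serpins, SPH93 and all 3 SP genes. Probe sets differ in how strongly they bind, so levels of different genes are not ranked against each other, and closely related serpins may share probe signal.

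**Figure D1:**
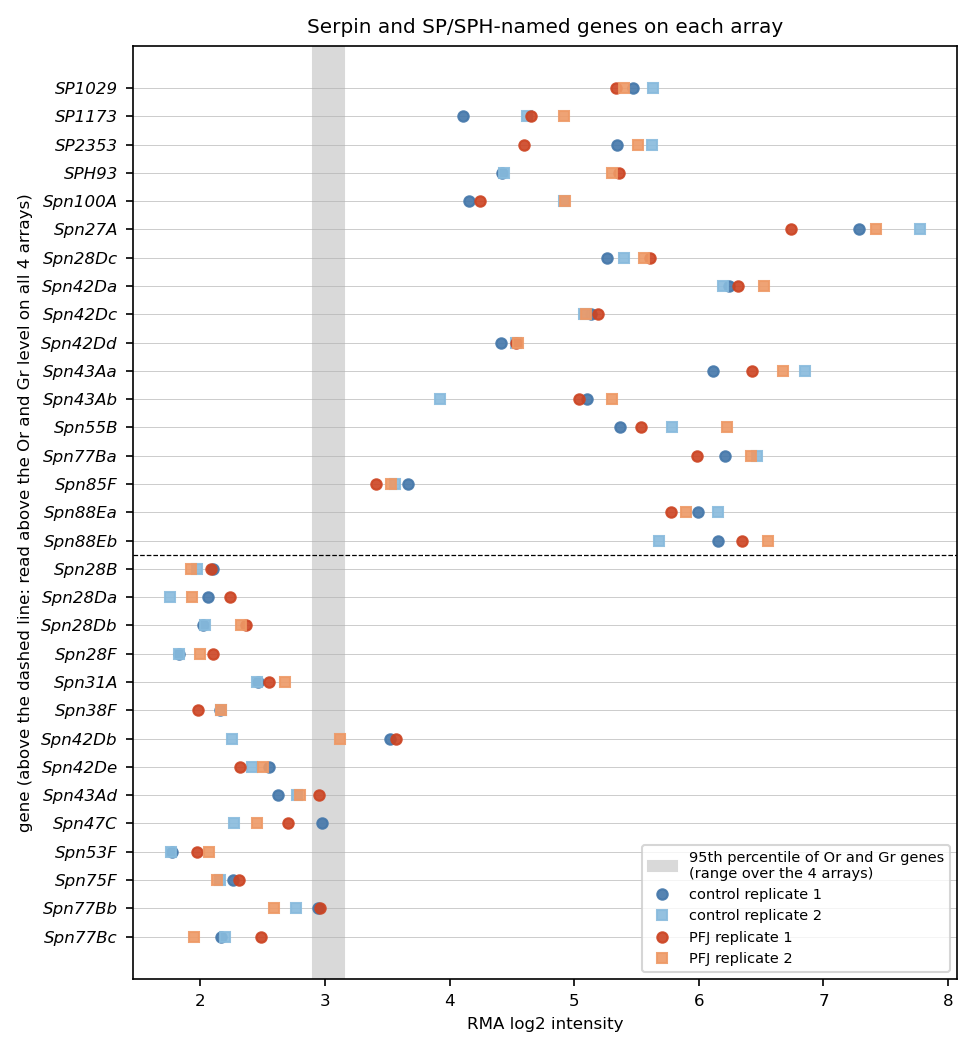
RMA log2 intensity of the 31 members on each array, with control arrays in blue, PFJ arrays in red, circles for replicate 1 and squares for replicate 2. The grey band is the range over arrays of the 95th percentile of 114 Or and Gr genes. The 17 members above the dashed line lie to the right of the band on every array, while of the others Spn42Db alone reaches past it.

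The serpins with known roles in melanization were all read above background. Spn27A, a hemolymph serpin that restrains the protease activating prophenoloxidase, read 7.29 and 7.77 without PFJ and 6.74 and 7.42 with it. Spn28Dc, which limits melanization after wounding, read 5.27 and 5.40 on the control arrays and 5.61 and 5.56 on the PFJ arrays. Spn77Ba, which restrains melanization in the tracheae, read 6.21 and 6.47 without PFJ and 5.99 and 6.42 with it. The PFJ arrays lay above the controls for Spn28Dc, whereas the groups overlapped for Spn27A and Spn77Ba.

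Serpins tied to Toll signalling were also measured. Spn42Dd, known as Spn1 and reported as a brake on Toll after fungal infection, read 4.42 and 4.54 on the control arrays and 4.53 and 4.55 on the PFJ arrays. Spn88Ea, known as Spn5 and needed for wing expansion, read 5.99 and 6.15 without PFJ and 5.78 and 5.90 with it. The first was nearly level on the 4 arrays, and the second was lower on both PFJ arrays than on both control arrays. The serpin gene nec, whose product inhibits the Toll-activating protease Persephone, does not carry an Spn symbol on this platform and is not a member. It read 3.81 and 3.41 on the control arrays and 3.72 and 3.87 on the PFJ arrays, with overlap.

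Several members sit side by side in the RefSeq gene order (Release 6 assembly), with no other protein-coding gene between them. The longest run held 5 genes, Spn42Da, Spn42Db, Spn42Dc, Spn42Dd and Spn42De, and its members were not all read above background. Spn42Da, an inhibitor of furin-like convertases in the secretory pathway, read 6.24 and 6.20 without PFJ and 6.31 and 6.52 with it. Spn42Dc read 5.13 and 5.08 on the control arrays and 5.19 and 5.10 on the PFJ arrays. Both varied little, with a range over the arrays of 0.32 for Spn42Da and 0.11 for Spn42Dc. Spn42De, at 2.55 and 2.41 without PFJ and 2.32 and 2.50 with it, stayed under the receptor level on every array. Spn42Db read 3.53 in control replicate 1 and 2.26 in control replicate 2, and 3.57 and 3.12 with PFJ, and so passed the level on 3 arrays and missed it on control replicate 2. The testis genes given above were also lowest on that array, and their part in the Spn42Db value was not tested.

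The other runs held 2 or 3 genes. Spn88Ea and Spn88Eb are neighbours and both were read above background. Spn88Eb read 6.16 and 5.68 on the control arrays and 6.34 and 6.55 on the PFJ arrays, with the PFJ arrays above the controls. In the run of Spn77Ba, Spn77Bb and Spn77Bc, only Spn77Ba was read above background on the 4 arrays. In the run of Spn43Ab, Spn43Ad and nec, Spn43Ad stayed under the level on every array. Spn43Ab read 5.10 and 3.92 without PFJ and 5.04 and 5.30 with it, and control replicate 2 stood more than 1 log2 unit below the other arrays. Spn28Da and Spn28Db, also neighbours, were both under the level on all 4 arrays.

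The remaining serpins above background had no role assigned here. Spn43Aa read 6.11 and 6.85 on the control arrays and 6.42 and 6.68 on the PFJ arrays. Spn55B read 5.37 and 5.78 without PFJ and 5.53 and 6.22 with it. Spn100A read 4.16 and 4.92 on the control arrays and 4.25 and 4.92 on the PFJ arrays. In these 3 genes the groups overlapped and replicate 2 was the higher one under both diets. Spn85F read 3.67 and 3.56 without PFJ and 3.41 and 3.53 with it, and it cleared the receptor level by 0.26 on its closest array. Of the SP genes, SP1029 read 5.47 and 5.63 on the control arrays and 5.33 and 5.40 on the PFJ arrays. SP2353 read 5.34 and 5.62 without PFJ and 4.60 and 5.51 with it, where PFJ replicate 1 was the low array. SP1173 read 4.11 and 4.62 on the control arrays and 4.65 and 4.92 on the PFJ arrays, with a narrow gap between the groups.

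The 14 members not above background on all 4 arrays were all serpins. They lay between 1.76 and 3.57, and without Spn42Db the highest value was 2.97. The accessory gland gene Spn75F, between 2.14 and 2.31, was among the 11 that never passed the receptor level. Spn47C and Spn77Bb passed it on 1 array each. Low values such as those of Spn28F, at 1.83 on both control arrays and 2.10 and 2.00 with PFJ, and Spn28Db, at 2.02 and 2.03 against 2.37 and 2.33, give no measure of a transcript level. The receptor level itself was higher on the PFJ arrays than on the same-numbered controls for replicate 1 and about equal for replicate 2.

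The comparison of PFJ with control found no member past the adjusted threshold. SPH93, the only member with an SPH symbol, had the smallest p of the members. Homologs under other symbols, such as mas at a log2 difference of -0.11, were not members. SPH93 read 4.42 and 4.44 without PFJ and 5.36 and 5.31 with it. Its groups lay far apart and the arrays within each were nearly equal. The means were 4.43 ± 0.01 and 5.33 ± 0.04 (SD, n = 2 each), a log2 difference of 0.90 (SE 0.16) or 1.87-fold, with a 95% interval from 1.38-fold to 2.53-fold. Its unadjusted p in limma's moderated test was 0.00452 and its adjusted p over all 13402 genes was 1, so it did not pass. Its rank by p among all genes was 33. An exact two-sided permutation test of 2 arrays against 2 cannot go below 0.333. SPH93 was the only member at an unadjusted p under 0.05, that is 1 of 31, where 2.78% of all genes were at that level. It was higher with PFJ, as were 1.74% of all genes at that level, and 0 members were lower, against 1.04% of all genes.

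The differences of the serpins were smaller than that of SPH93. At an adjusted p under 0.05 the count was 0 of 31 members, beside 0% of all genes. Of the 31 members, 20 had positive and 11 negative differences, or 64.5% positive against 51.9% of all genes. The median log2 difference was 0.07 over the members and 0.01 over all genes. Spn43Ab had the largest positive difference among serpins, with means of 4.51 ± 0.84 and 5.17 ± 0.19 (SD, n = 2 each) and a log2 difference of 0.66 (SE 0.46). Its unadjusted limma p was 0.223, and without control replicate 2 the difference was 0.06. Spn27A had the most negative difference, with means of 7.53 ± 0.34 and 7.08 ± 0.48 (SD, n = 2 each), a log2 difference of -0.45 (SE 0.34) and an unadjusted limma p of 0.251. This difference was -0.21 without control replicate 2, where Spn47C at -0.39 and SP2353 at -0.29 were more negative, and it was -0.11 without PFJ replicate 1. SP2353 followed at -0.43 (SE 0.37, unadjusted limma p 0.311), and this became 0.027 without PFJ replicate 1.

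**Figure D2:**
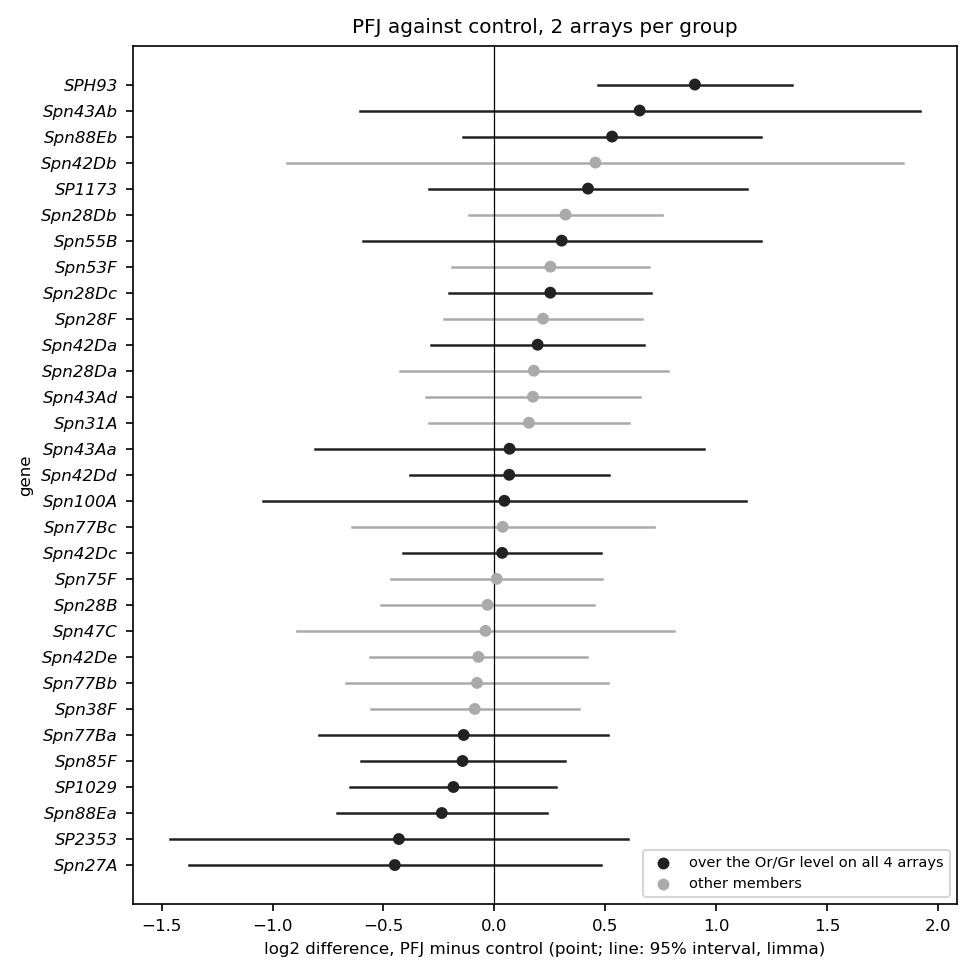
Log2 difference between PFJ and control for the 31 members, with the 95% interval of limma's moderated test as a line. Black marks the 17 members read above background on all 4 arrays and grey the rest. The interval of SPH93, around 0.90, lies to the right of 0, and the other 30 intervals include 0.

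The groups did not overlap in 13 members. Both PFJ arrays were above both controls in 10, and this held for 15.5% of all genes. Both were below in 3, and this held for 13.1% of all genes. Of the 10, 5 were members read above background, namely SPH93, Spn88Eb, SP1173, Spn28Dc and Spn42Da, and the other 5 were serpins under the receptor level. The 3 lower ones were Spn88Ea, SP1029 and Spn85F. Apart from SPH93, the smallest p of any member was 0.0927 (limma, unadjusted), for Spn88Eb, whose log2 difference was 0.53 (SE 0.24). Control replicate 2 was its lowest array, and without it the difference was 0.29. For Spn42Db, at 0.46 with all arrays (SE 0.50), it was -0.18 without control replicate 2 and 1.09 without control replicate 1.

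The intervals are per gene, without adjustment, and show what sizes of change remain possible for each member. The adjusted test over all genes is stricter, and SPH93, at a log2 difference of 0.90, did not pass it. Over all 31 members, those not above background included, the median half-width of the 95% interval was 0.48 on the log2 scale. That is 1.40-fold either way, and the half-width ran from 0.44 to 1.39. Among the 17 members above background it ran from 0.44 for SPH93 to 1.26 for Spn43Ab, with Spn77Ba, at 0.65, in the middle. For the serpins of melanization, the interval ran from -0.20 to 0.71 for Spn28Dc, from -0.79 to 0.51 for Spn77Ba and from -1.38 to 0.48 for Spn27A. A fall of 1 log2 unit lay within the interval of Spn27A, whereas the interval of Spn28Dc left out changes of 1 log2 unit in either direction. For the convertase inhibitor Spn42Da the interval was -0.28 to 0.68, and for Spn88Ea it was -0.71 to 0.24.

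For most members above background, pools fed the same food were further apart than the group means. In 11 of these 17 members the larger of the gaps within the 2 groups exceeded the difference between the group means. The share of all genes for which this held was not computed, so the count is not read as particular to the members. Replicate 2 was higher than replicate 1 under both diets in 10 of the 17, against 36.6% of all genes above the receptor level. The gap was 0.76 in controls and 0.68 with PFJ for Spn100A, and 0.49 and 0.68 for Spn27A. For Spn55B it was 0.41 and 0.69. Of the 13 measured midgut genes, 10 were also higher in replicate 2 under both diets. So were 9 of 11 hemocyte genes, 4 of 8 salivary gland genes, 2 of 9 fat body markers and 0 of 17 testis genes. Of the 13 midgut genes, 10 were above background, and the digestive lysozyme gene LysB was under the level on all 4 arrays. The log2 of the summed midgut intensity was 11.4 and 13.2 on the control arrays and 12.0 and 12.8 on the PFJ arrays. The part of any of these tissues in the serpin values was not tested. Spn43Ab and Spn88Eb went the other way in controls, by -1.18 and -0.48, and were higher in replicate 2 with PFJ, by 0.27 and 0.21. The median range over the 4 arrays was 0.74 for the 17 members and 0.59 for all genes above the receptor level.

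**Figure D3:**
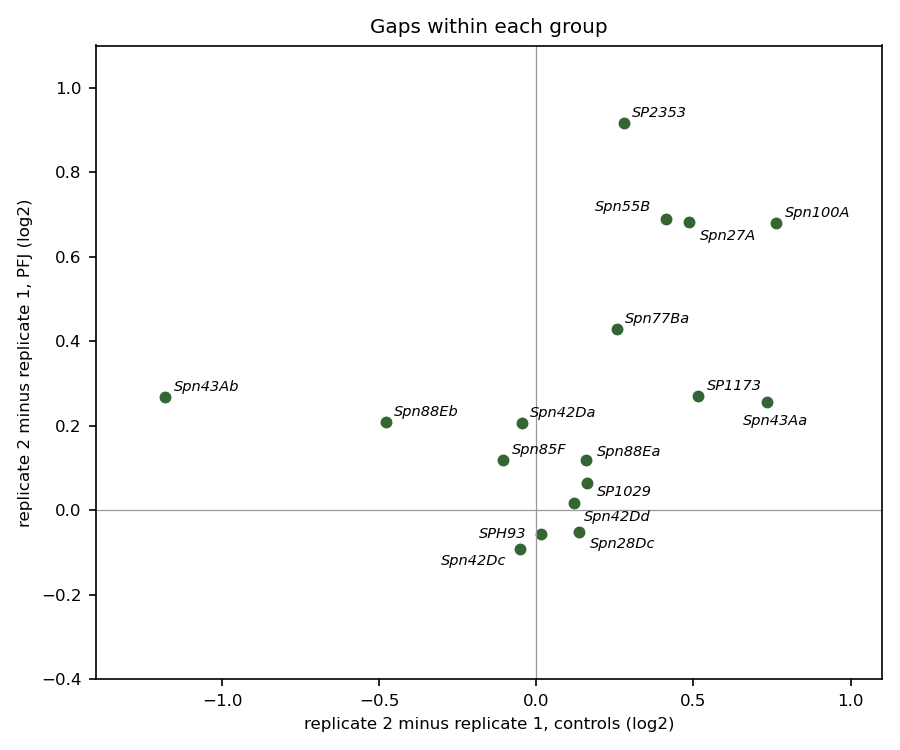
Gap between replicate 2 and replicate 1 in controls (horizontal) and with PFJ (vertical), in log2 units, for the 17 members read above background. The 10 members in the upper right part were higher in replicate 2 under both diets. Spn43Ab lies far to the left because control replicate 2 read 1.18 below control replicate 1, and SPH93 lies near the origin.

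Proteases and homologs of the Toll pathway, and the genes downstream, were read from the same fit. They were listed by pathway, not as targets of the members. Of 11 measured Toll-pathway proteases and homologs, 6 were read above background and 0 passed the adjusted test. At an unadjusted p under 0.05 there were 0, against 2.78% of all genes. Persephone (psh), the target of nec, read 4.36 and 4.66 without PFJ and 4.41 and 4.89 with it. SPE, which cleaves Spätzle, read 3.39 and 3.51 on the control arrays and 3.39 and 3.18 on the PFJ arrays. The groups overlapped for psh. For SPE the log2 difference of the means was -0.17, and the higher PFJ array lay less than 0.01 below the lower control. Of the 11 genes, 6 had both PFJ arrays above both controls, against 15.5% of all genes. Among these 6, spirit and grass alone were read above background. The others, gd and snk included, were not. SPE was the 1 gene with both below, against 13.1% of all genes. The smallest p in this list belonged to spirit, a clip-domain protease of the cascade, at a log2 difference of 0.61 (SE 0.29), or 0.96 without control replicate 2. All 8 genes from the ligand spz to the NF-kB factors Dif and dl were above background, with a median log2 difference of -0.01 and 0 at an unadjusted p under 0.05.

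Of 7 measured genes of the output of Toll, 3 were read above background. IM33, an immune-induced molecule gene, had the largest difference of the list. It read 8.57 and 6.14 on the control arrays and 8.79 and 9.12 on the PFJ arrays, at a log2 difference of 1.60 (SE 0.88), which was 0.39 without control replicate 2. Drs, the antifungal peptide drosomycin, read 2.47 and 2.45 without PFJ and 3.85 and 2.76 with it, and passed the receptor level on PFJ replicate 1 alone. Mtk, another antifungal peptide gene, read 4.98 and 4.62 on the control arrays and 4.28 and 4.07 on the PFJ arrays, at a log2 difference of -0.62 (SE 0.21). It was the 1 gene of this list at an unadjusted p under 0.05, and it was lower, as were 1.04% of all genes. Both PFJ arrays lay above the controls for IM33 and below them for Mtk, and neither gene passed the adjusted test. Among 6 other measured inhibitors and homologs, nec included, 5 were above background and 0 were at an unadjusted p under 0.05.

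Of 9 measured melanization genes, 0 passed the adjusted test. At an unadjusted p under 0.05, 2 were higher, against 1.74% of all genes, and 0 were lower, against 1.04%. The 2 were the prophenoloxidase genes PPO1, which read 3.82 and 4.06 without PFJ and 4.87 and 5.53 with it, and PPO2, which read 4.54 and 4.80 in controls and 5.20 and 5.69. Both are markers of crystal cells, the hemocytes that carry prophenoloxidase. The hemocyte gene Hml read 4.37 and 4.66 on the control arrays and 5.13 and 5.26 on the PFJ arrays. SPH93, PPO1, PPO2 and Hml were higher on the same 2 arrays, while some other hemocyte genes were not. The crystal cell gene lz read 3.17 and 3.02 on the control arrays and 3.25 and 3.10 on the PFJ arrays. Its groups overlapped, and it passed the receptor level on 3 arrays. The hemocyte list had 6 positive and 5 negative differences. The plasmatocyte receptor genes NimC1 and crq both differed by -0.67, or by -0.13 and -0.28 without control replicate 2, and the scavenger receptor gene Sr-CI by -0.17. Of the 11 measured hemocyte genes, 8 were above background and 0 were under the level on all 4 arrays. Both PFJ arrays were above both controls in 5 of them, against 15.5% of all genes, and below in 0, against 13.1%. At an unadjusted p under 0.05, 3 were higher, against 1.74% of all genes, and 0 were lower, against 1.04%. The 3 were Hml, PPO1 and PPO2, so the 2 prophenoloxidase genes are counted in both lists. The log2 of the list's summed intensity was 8.18 and 8.56 without PFJ and 8.11 and 8.76 with it, with overlap. The list's means overlapped too. Its medians, 4.27 and 4.38 without PFJ and 4.83 and 5.26 with it, did not. The 7 fat body markers given above were also higher on both PFJ arrays. The part of either in the SPH93 difference was not tested.

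**Figure D4:**
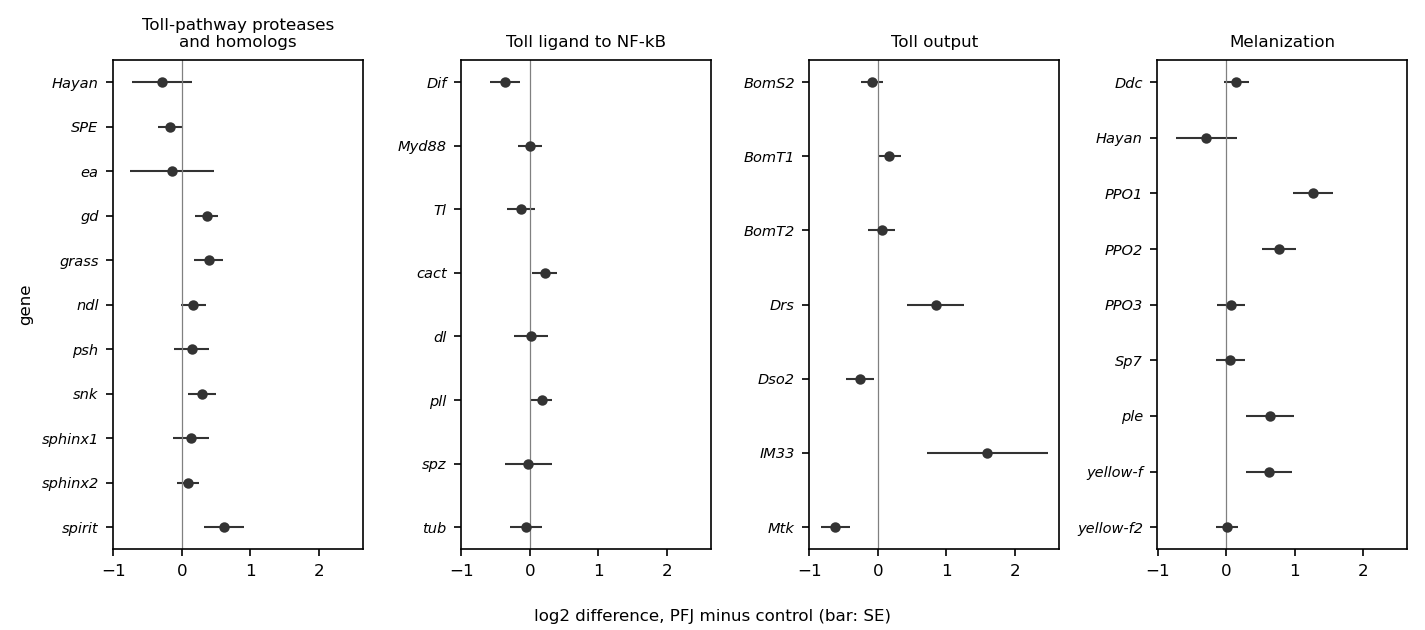
Log2 difference between PFJ and control, with its SE as a bar, for the measured Toll-pathway proteases and homologs, Toll ligand to NF-kB genes, Toll output genes and melanization genes. PPO1 at 1.26 and PPO2 at 0.78 lie to the right in the melanization panel, and in the panel of Toll output IM33 at 1.60 and Drs at 0.85 lie to the right and Mtk at -0.62 to the left.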

How the data were processed

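The 4 arrays were single-colour Affymetrix arrays. The authors deposited log2 intensities, 1 per transcript cluster, by RMA in Affymetrix Expression Console, version 1.4.0.38, per the submitters' processing notes. Their range, 1.36 to 12.7, fits the log2 scale. No genome build is given in the sources used here. RMA equalises the arrays and would hide a change common to most genes. Of 16322 rows, 13441 had 1 symbol in the platform table. The brightest row was kept for 37 genes, leaving 13402. PFJ was compared with control in R 4.3.3 with limma 3.58.1 (lmFit and eBayes, two-sided, no covariate), with Benjamini-Hochberg adjustment over 13402 genes and a threshold of 0.05; SEs are moderated, with 4.01 degrees of freedom. The procedure was tested on simulated data. The members, lists and tests were chosen with earlier results of these data known. All members could be named; of other lists, up to 4 genes with the smallest p, and nec, Drs, psh and SPE. Midgut, hemocyte, testis and fat body genes named beyond these were chosen after their values were seen. The alternatives were another normalisation, centring, filters on dim genes, leaving out each array, a replicate block, an intensity trend and averaged rows. The number of arrays limits the precision. Sequences were not analysed here.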

Additional observations from a re-analysis of the deposited data

How the results depend on the processing

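Under 11 other settings of the fit, 0 genes and 0 members passed the adjusted test, and the median log2 difference of the members moved by less than its SD between replicates of 0.18. SPH93 kept its direction in all 11, between 0.86 and 0.94, with unadjusted limma p-values from 0.00450 to 0.0283 and adjusted ones from 0.649 to 1. The count of members at an unadjusted p under 0.05, 1 in the fit as reported, was 4 with an intensity trend in the prior (SPH93, Spn28Db, Spn28F and Spn53F, the last 3 under the receptor level), where 2.86% of all genes were at that level. It ranged from 1 to 4 when each array was left out. It was 4 without control replicate 1, adding Spn42Db, Spn43Ab and Spn88Eb, where the share of all genes was 7.05%, and 2 without PFJ replicate 2, adding SP2353, where that share was 4.22%. The difference of SP2353 ranged from -0.89 without PFJ replicate 2 to 0.027 without PFJ replicate 1, where it reversed, and the cause was not tested. With the replicate number as a block the count stayed at 1, while the number of all genes at an unadjusted p under 0.05 was 547 in place of 373; the labels give the number no shared source, and the same-numbered arrays' deviations correlated at 0.337 across genes. The number of members above background was 17 with the 95th percentile and 16 with the 99th percentile of the receptor genes, 16 with the median of all genes, and 17 with quantile normalisation repeated. Leaving out each array, an alternative chosen after seeing the data, gave 17 to 18, with 18, Spn42Db included, without control replicate 2. The mild and strict filters on dim genes left 18 and 16 members to test. Where an array was left out, the lone array of its group was assumed to vary like those of the other group.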
